A study of Mus musculus with 24 samples.

Results

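The transcripts described here were 10 chemokine ligands, Ccl2, Ccl3, Ccl4, Ccl5, Ccl6, Ccl9, Ccl12, Cxcl10, Cxcl13 and Cxcl16, chosen by name from the 22274 genes of the deposited table, and all 10 had a row in it. RNA was sequenced from brain tissue of male C57BL/6J mice in 24 libraries, with 3 libraries in each of 8 groups. In the PEL model a cathodic current was passed at the pituitary stalk through a stereotaxic knife, and hypothalamic tissue with the supraoptic and paraventricular nuclei was taken at day 3 (PEL_3d) or day 10 (PEL_10d) after the lesion. Sham mice (SHAM, labelled day 0) served as controls. Each of these 3 hypothalamic groups had a counterpart treated with GH (SHAM-GH, PEL_3d-GH and PEL_10d-GH), for which no dose or schedule was given in the sources used here. The hippocampus was sampled in Sham mice (HIP-SHAM) and at day 10 (HIP-PEL_10d). No age, transgene or allele was named for any group. Nothing in the labels said whether the 3 libraries of a group came from separate mice, so p-values measured only the spread between libraries.

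Chemokines are small secreted proteins that direct the migration of leukocytes by binding G protein-coupled receptors on them. The CC ligands, whose first pair of cysteines is adjacent, mainly attract monocytes, macrophages and T cells, whereas the CXC ligands, with a residue between those cysteines, attract neutrophils, lymphocytes or activated T cells depending on the member. In the injured brain, microglia, astrocytes, border macrophages and arriving leukocytes can all make them, and many are induced through NF-kappaB by interleukin 1 and tumour necrosis factor or through interferon signalling.

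The 2 families can be read in the coding sequence itself, so the 30 bases around the first cysteines are shown for 9 members from the GENCODE M21 transcripts (build GRCm38), with the codons that run from the first to the second of these cysteines in capitals. In the 6 CC members shown the capitals span 2 codons, and in the 3 CXC members they span 3.
Ccl2: ccactcaccTGCTGCtactcattcaccagc
Ccl4: cccacttccTGCTGTttctcttacacctcc
Ccl5: accactcccTGCTGCtttgcctacctctcc
Ccl6: tcttcagacTGCTGCttctcttatgccaca
Ccl9: tcttcagatTGCTGCctgtcctataactca
Ccl12: ccagtcacgTGCTGTtataatgttgttaag
Cxcl10: acggtccgcTGCAACTGCatccatatcgat
Cxcl13: aacttaaaaTGTAGGTGTtctggagtgatt
Cxcl16: gctggaagtTGTTCTTGTgatcgtaccatt
The stretch lies in exon 2 of the annotated transcript in 7 of those shown and in exon 3 in Ccl6 and Ccl9. Ccl6 and Ccl9 also held the longest run of identical bases between any of the 45 pairs of coding sequences, 23 bases, and the next pair, Ccl2 and Ccl12, shared 17 bases.

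Of the members, 8 lie on mouse chromosome 11 and 2 on chromosome 5 (GRCm38). Ccl5 (chr11:83525778-83530518, minus strand), Ccl9 (chr11:83572919-83578636, minus), Ccl6 (chr11:83587882-83593087, minus), Ccl3 (chr11:83647844-83649355, minus) and Ccl4 (chr11:83662584-83664683, plus) sit within 138.9 kb. Ccl2 (chr11:82035571-82037453, plus) and Ccl12 (chr11:82101845-82103400, plus) sit within 67.8 kb of each other's far ends. Cxcl16 (chr11:70453983-70459984, minus), Cxcl10 (chr5:92346638-92348889, minus) and Cxcl13 (chr5:95956951-95961068, plus) stand apart from these clusters. Annotated exons of Cxcl16 share 552 bases with exons of Zmynd15 on the opposite strand and those of Cxcl10 share 133 bases with Art3, so that reads in those bases could not be assigned to either gene without strand information.

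Counts per library totalled 15095267 to 17973494, and levels between genes are compared in FPKM, the authors' fragment counts scaled to gene length and library size. The detection floor was set at 3 counts in a library. A pair of libraries stood apart from their labels. The library labelled SHAM 1 had a summed FPKM of 460 over 14 hippocampal marker genes, against 25.3 to 35.2 in the other hypothalamic libraries, and 93.0 over 14 hypothalamic genes, against 1050 to 6822. The 6822 was that of PEL_10d-GH 3 alone, and the next highest sum was 1868 in PEL_10d-GH 2. The library labelled HIP-SHAM 1 had 31.4 over the hippocampal genes, against 417 to 556 in the other hippocampal libraries, and 1398 over the hypothalamic genes, against 144 to 231. The library HIP-SHAM 3 was hippocampal by its title and hypothalamic in its tissue field and was kept by its title. The comparisons that rest on the libraries labelled SHAM 1 or HIP-SHAM 1 are given with and without them, and the statements on detection and levels include them as labelled. In bulk tissue, fewer cells of a type and less RNA per cell cannot be told apart.

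In the lesioned hypothalamus only Cxcl13, the B cell attractant of lymphoid follicles, lay at the floor, in 9 of 12 libraries. The other 9 members had more than 3 counts in all 12 lesioned hypothalamic libraries. Ccl6, Ccl9 and Cxcl16 were above the floor in all 24 libraries. In the Sham and hippocampal libraries, Ccl4 was at or under the floor in 12 of 12, Ccl3 in 9, Ccl5 in 8, Ccl2 in 7, Ccl12 in 4 and Cxcl10 in 3. A whole group lay at the floor for Ccl4 in SHAM, SHAM-GH, HIP-SHAM and HIP-PEL_10d, for Ccl3 in SHAM-GH, for Ccl5 in HIP-SHAM and for Ccl2 in HIP-PEL_10d. For Cxcl13 this was so in SHAM-GH, PEL_3d, PEL_3d-GH, HIP-SHAM and HIP-PEL_10d.

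**Figure D1:**
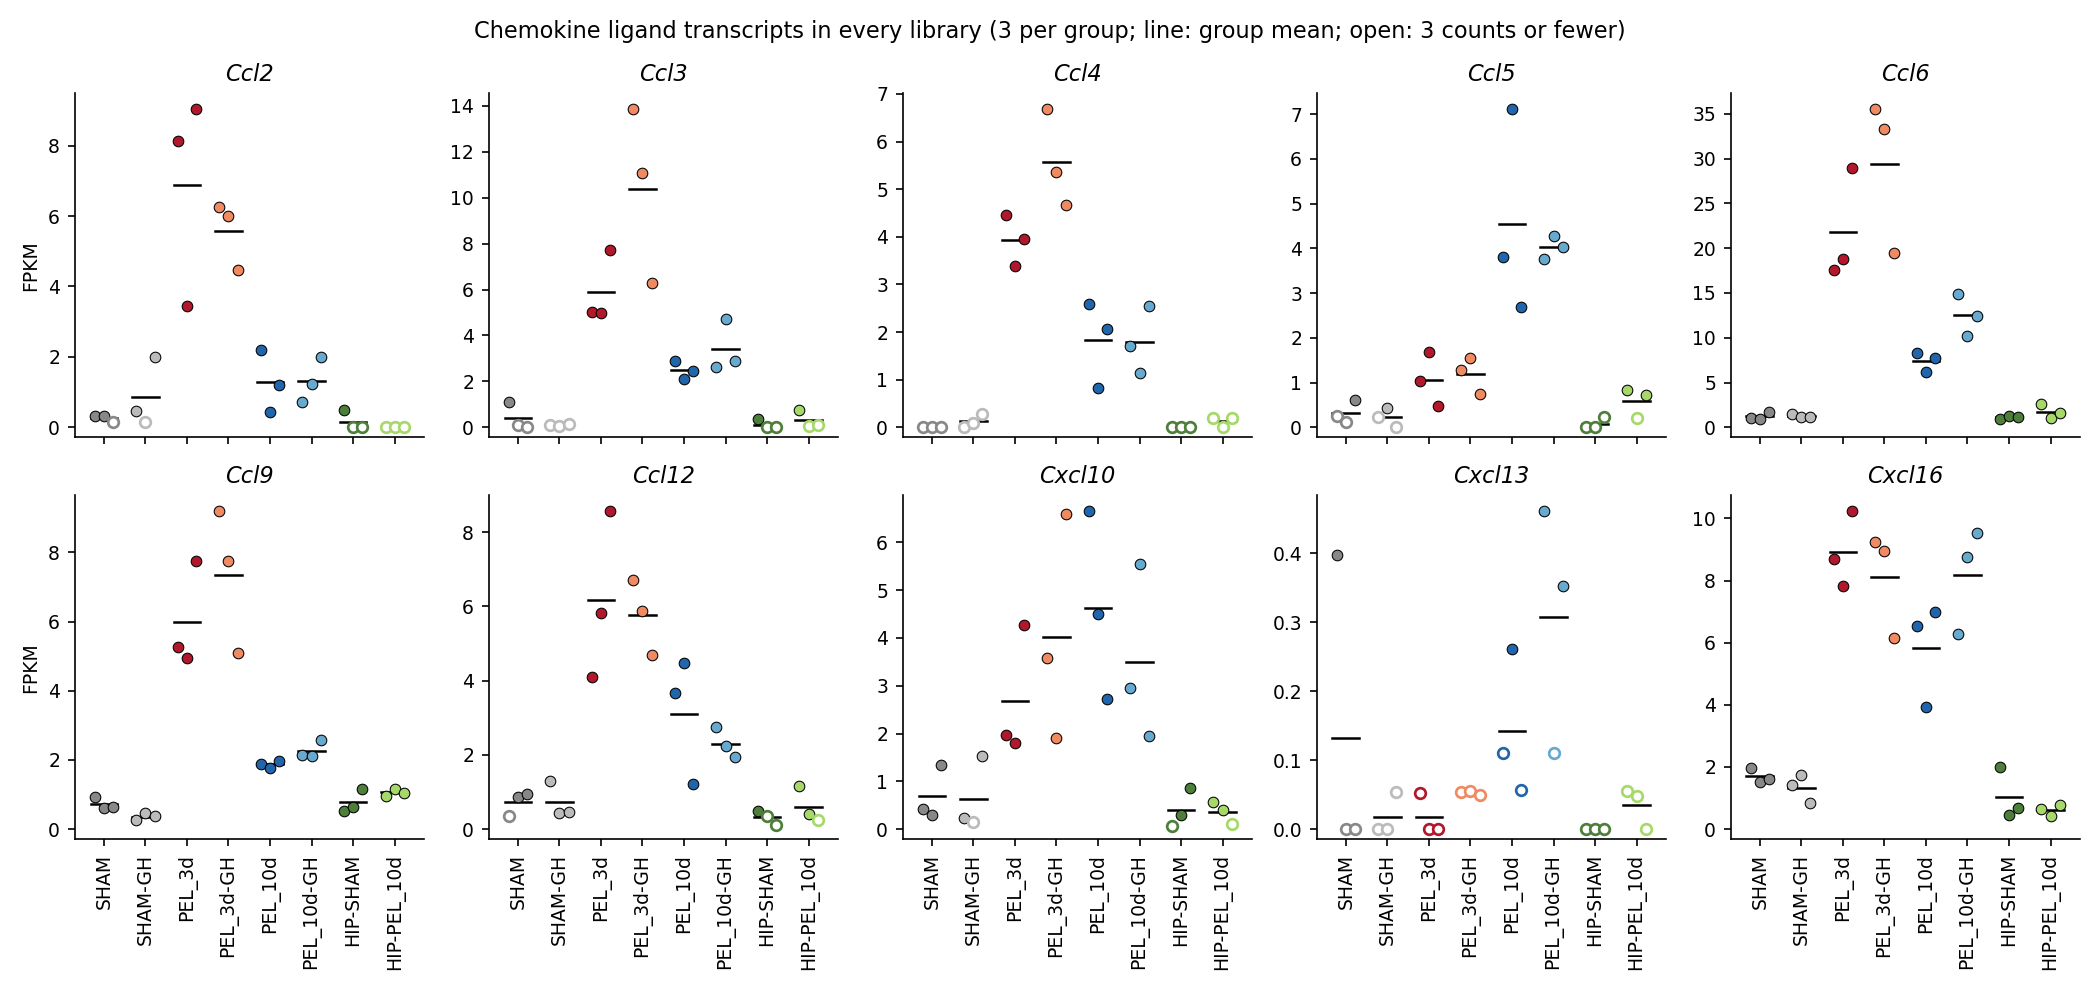
FPKM of each member (y axis, one panel per gene with its own scale) in every library of the 8 groups (x axis), with a line at the mean of the 3 libraries and open points for libraries with 3 counts or fewer. Ccl2, Ccl3, Ccl4, Ccl6 and Ccl9 are highest in the day 3 groups, Ccl5 is highest in the day 10 groups, and the Sham and hippocampal libraries lie near 0 for most members.

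Summed over the 10 members, the level was 4.70 to 7.05 FPKM in SHAM, with or without SHAM 1, and 4.64 to 6.79 in SHAM-GH. It was 52.7 to 81.0 in PEL_3d, 58.3 to 92.4 in PEL_3d-GH, 29.1 to 38.6 in PEL_10d and 38.3 to 40.3 in PEL_10d-GH. Thus no lesioned library reached down to a Sham library, and no day 10 library reached up to a day 3 library. Ccl6 had the highest mean in all 4 lesioned groups. At day 3 without GH its 3 libraries (17.5, 18.8 and 29.0 FPKM) lay above those of the next member, Cxcl16 (7.82 to 10.3), whereas Cxcl16, Ccl2, Ccl12, Ccl9 and Ccl3, which followed in this order, overlapped with their neighbours. At day 10 without GH, Ccl6 (6.21 to 8.27) and Cxcl16 (3.93 to 7.0) overlapped, and Cxcl10 and Ccl5 came next.

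The main question for these genes was how day 10 compared with day 3. Across the 6 day 3 and 6 day 10 libraries, with GH as a covariate, 6 of the 9 members tested were lower at day 10 (Ccl2, Ccl9, Ccl3, Ccl6, Ccl4 and Ccl12) and 1 was higher (Ccl5), by edgeR's quasi-likelihood test at an adjusted p under 0.05. Of all 15091 genes tested, 22.1% were lower and 17.3% were higher in the same fit. Cxcl10 and Cxcl16 did not pass, and Cxcl13 was removed by the count filter. With no filter on low counts, all 10 members entered the fit, 6 were lower and 2 were higher (Ccl5 and Cxcl13, the latter at 0 to 9 counts a library), beside 16.9% lower and 14.8% higher of 18476 genes. The median log2 fold change of the 9 members was -1.38, beside 0.00 over all genes tested. Of the 9 members over the floor, all with a mean of at least 1 FPKM over the 12 libraries, 6 had FPKM ranges that did not overlap between the days (Ccl2, Ccl3, Ccl4, Ccl5, Ccl6 and Ccl9), beside 15.3% of the 13462 genes with a mean of at least 1 FPKM.

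Ccl2, the main monocyte attractant that acts through Ccr2, showed the steepest fall. It was at 8.14, 3.45 and 9.03 FPKM in PEL_3d and 6.26, 5.99 and 4.48 in PEL_3d-GH. At day 10 it was at 2.18, 0.44 and 1.2 in PEL_10d and 0.72, 1.24 and 1.99 in PEL_10d-GH. All day 10 libraries therefore lay below all day 3 libraries, and the mean was 4.80-fold lower (log2 fold change -2.26, SE 0.33, adjusted p = 0.000121). The counts behind these values were 44 to 118 at day 3 and 6 to 28 at day 10. Ccl12, a mouse ligand of the same receptor, had 4.11, 5.82 and 8.57 FPKM in PEL_3d and 6.70, 5.89 and 4.69 in PEL_3d-GH. It had 3.66, 4.47 and 1.21 in PEL_10d and 2.74, 2.23 and 1.94 in PEL_10d-GH. Here PEL_10d 2 lay above PEL_3d 1, so the days overlapped, while the mean was 2.20-fold lower (log2 -1.15, SE 0.27, edgeR adjusted p = 0.00417).

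Ccl3 and Ccl4, the macrophage inflammatory proteins, fell together. Ccl3 was at 5.04, 4.99 and 7.72 FPKM in PEL_3d and 13.9, 11.1 and 6.29 in PEL_3d-GH, against 2.89, 2.12 and 2.46 in PEL_10d and 2.62, 4.70 and 2.87 in PEL_10d-GH. Ccl4 was at 4.46, 3.38 and 3.96 in PEL_3d and 6.67, 5.37 and 4.67 in PEL_3d-GH, against 2.59, 0.82 and 2.07 in PEL_10d and 1.70, 1.15 and 2.54 in PEL_10d-GH. Neither gene overlapped between the days. Ccl3 was 2.77-fold lower at day 10 (log2 -1.46, SE 0.22, edgeR adjusted p = 0.000186). Ccl4 was 2.62-fold lower (log2 -1.38, SE 0.25, edgeR adjusted p = 0.000760).

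Ccl6 and Ccl9, neighbouring CC ligands that act through Ccr1 and are found in rodents, had the smallest SE of the members that passed. Ccl6 was at 17.5, 18.8 and 29.0 FPKM in PEL_3d and 35.5, 33.3 and 19.5 in PEL_3d-GH, and at 8.27, 6.21 and 7.71 in PEL_10d and 14.9, 10.2 and 12.4 in PEL_10d-GH. Ccl9 was at 5.28, 4.96 and 7.76 in PEL_3d and 9.21, 7.77 and 5.10 in PEL_3d-GH, and at 1.90, 1.78 and 1.97 in PEL_10d and 2.14, 2.10 and 2.58 in PEL_10d-GH. The lowest day 3 library of each gene was above its highest day 10 library. Ccl6 was 2.57-fold lower at day 10 (log2 -1.40, SE 0.17, edgeR adjusted p = 2.55e-05) and Ccl9 was 3.22-fold lower (log2 -1.69, SE 0.15, edgeR adjusted p = 1.42e-06).

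Ccl5, a T cell and monocyte attractant also made by T and natural killer cells, went the other way. It was at 1.04, 1.68 and 0.47 FPKM in PEL_3d and 1.28, 1.55 and 0.74 in PEL_3d-GH, and at 3.81, 7.10 and 2.69 in PEL_10d and 3.77, 4.27 and 4.02 in PEL_10d-GH. Every day 10 library lay above every day 3 library, and the mean was 3.80-fold higher (log2 1.91, SE 0.31, edgeR adjusted p = 0.000281). The counts were 4 to 14 at day 3 and 22 to 63 at day 10.

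Cxcl10, an interferon-induced ligand of Cxcr3 on activated T cells, did not separate the days. It was at 1.96, 1.81 and 4.27 FPKM in PEL_3d and 3.57, 1.91 and 6.6 in PEL_3d-GH, and at 6.66, 4.50 and 2.73 in PEL_10d and 2.96, 5.54 and 1.96 in PEL_10d-GH. The libraries of each group were widely spread, and the log2 fold change was 0.26 (SE 0.36, edgeR adjusted p = 0.600). Cxcl16, a membrane-bound ligand of Cxcr6 that is also a scavenger receptor, was at 8.70, 7.82 and 10.3 in PEL_3d and 9.25, 8.94 and 6.14 in PEL_3d-GH. It was at 6.53, 3.93 and 7.0 in PEL_10d and 6.28, 8.77 and 9.52 in PEL_10d-GH. The days overlapped, and the log2 fold change was -0.24 (SE 0.17, edgeR adjusted p = 0.273).

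Cxcl13 rested on single reads. It had 1, 0 and 0 counts in PEL_3d and 1 in each PEL_3d-GH library, against 2, 5 and 1 in PEL_10d and 9, 2 and 7 in PEL_10d-GH. Only 3 day 10 libraries therefore exceeded the floor, at 0.26 to 0.46 FPKM. The ratio of summed counts was 8.0 without GH (95% counting interval 1.07 to 355) and 5.96 with GH (1.74 to 31.6), intervals that cover counting error only.

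The same contrast on the FPKM scale, with libraries rearranged within the GH strata, gave an exact permutation p of 0.005 for Ccl2, Ccl3, Ccl4, Ccl5, Ccl6 and Ccl9, the smallest that the 400 arrangements can give. The exact permutation p was 0.010 for Ccl12, 0.155 for Cxcl16 and 0.55 for Cxcl10, all two-sided. For Cxcl13 the test compares means of libraries of 0 to 9 counts, and its exact permutation p of 0.005 rests on those few counts.

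**Figure D2:**
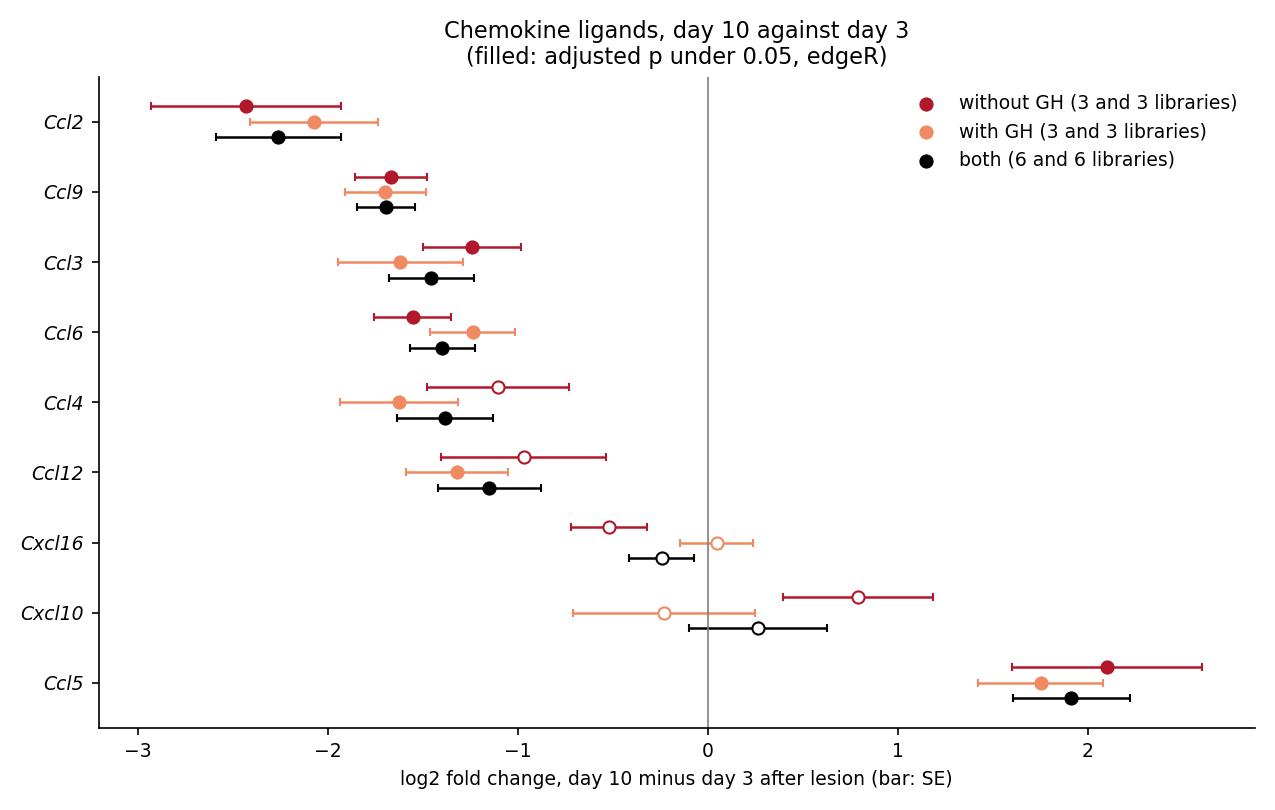
Log2 fold change of each tested member from day 3 to day 10 after the lesion (x axis, bars are SE) without GH, with GH and over both, with filled points for an edgeR adjusted p under 0.05. Over both, 6 members lie between -2.26 and -1.15, Ccl5 lies at 1.91, and Cxcl16 and Cxcl10 lie at -0.24 and 0.26.

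Taken separately, 4 members were lower without GH (Ccl2, Ccl3, Ccl6 and Ccl9) and 1 was higher (Ccl5), beside 12.2% lower and 6.33% higher of 14807 genes. The members that did not pass were Ccl4 (log2 -1.11, edgeR adjusted p = 0.0692), Ccl12 (-0.97, adjusted p = 0.149), Cxcl16 (-0.52, adjusted p = 0.101) and Cxcl10 (0.79, adjusted p = 0.194). With GH, the 6 members named above were lower and Ccl5 was higher, beside 10.8% lower and 4.81% higher of 14838 genes. Here the calls of several members rested on PEL_3d-GH 1: without that library 3 members were called in place of 7 (Ccl2, Ccl6 and Ccl9), while the calls over all genes fell as well, from 713 higher and 1602 lower to 122 and 582. The calls lost had an edgeR adjusted p of 0.0523 to 0.0730 (Ccl3, Ccl4, Ccl5 and Ccl12). Their log2 fold changes without that library were -1.36, -1.48, 1.81 and -1.20. The Ccl3 call was also lost without PEL_10d-GH 1 (adjusted p = 0.0564) and the Ccl12 call without PEL_10d-GH 2 (adjusted p = 0.0563). Without GH, the Ccl5 call was lost without PEL_10d 2, PEL_3d 1 or PEL_3d 3 (adjusted p = 0.0701 to 0.0773), while Ccl4 and Cxcl16 were called without PEL_10d 1 (adjusted p = 0.0443 and 0.0496). In one fit over all hypothalamic groups that included the library labelled SHAM 1, the Ccl3 call was lost without and with GH and that of Ccl12 with GH (edgeR adjusted p = 0.0506 to 0.158), whereas the same fit without SHAM 1 gave 4 lower and 1 higher without GH and 6 lower and 1 higher with GH. Over both strata the 7 calls held whichever of the 12 libraries was left out. Some members passed the filter through the day on which they were high, such as Ccl5 through day 10. With no filter on low counts the same members were called in each stratum. Beside them, 1839 genes were lower and 871 higher of 18025 without GH, and 1520 were lower and 860 higher of 18006 with GH.

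Whether the day effect differed with GH was tested as an interaction. No member of 9 passed, at an adjusted p of 0.9998 for each, none had an unadjusted p under 0.05, and DESeq2 called 0. Of all 15091 genes 0.0% passed, 440 had an unadjusted p under 0.05, and DESeq2 also called 0. The largest differences between the strata were those of Cxcl10 (log2 -1.0, SE 0.70, unadjusted p = 0.175) and Cxcl16 (0.58, SE 0.31, unadjusted p = 0.0862).

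In the GH-treated groups, the Sham libraries all carried hypothalamic markers. Of the members, Ccl6, Ccl9 and Cxcl16 also passed the filter on low counts among all Sham libraries alone, as Cxcl10 did where SHAM 1 was left out. With GH, the members other than Ccl6, Ccl9 and Cxcl16 entered the filtered fit only where a lesioned group was high. The numbers of members called are therefore taken from the fit with no such filter, which all 10 members entered. In that fit, 9 of 10 were higher in PEL_3d-GH than in SHAM-GH, with Cxcl13 as the exception, beside 22.8% of 17944 genes. At day 10, 9 of 10 were higher, beside 15.1% of 17955 genes, and Ccl2 was the exception (log2 0.60 in the filtered fit, SE 0.71, edgeR adjusted p = 0.559). The fold changes given below are from the filtered fits, in which 26.9% of 14743 genes were higher at day 3 and 17.7% of 14686 at day 10. Both days used the same Sham libraries.

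With GH, both Ccl3 and Ccl4 lay at the floor in every SHAM-GH library, so that the size of their ratios to Sham is uncertain. Ccl3 had the highest ratio, with a counting interval that overlapped that of Ccl4. Its 1, 1 and 2 counts in SHAM-GH compared with 171, 134 and 86 in PEL_3d-GH, a ratio of depth-adjusted counts of 96.1 (95% counting interval 37.2 to 354), and with 34, 57 and 38 in PEL_10d-GH, a ratio of 31.5 (12 to 117). Ccl4 had 0, 1 and 3 counts in SHAM-GH, and its ratio was 44.7 (17.2 to 166) at day 3 and 14.6 (5.43 to 55.5) at day 10. Both genes thus remained well over their Sham counts at day 10, when they had fallen from day 3.

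Ccl6 rose from 1.46, 1.11 and 1.12 FPKM in SHAM-GH by a log2 fold change of 4.55 (SE 0.26, edgeR adjusted p = 9.86e-07) at day 3 and 3.32 (SE 0.19, adjusted p = 2.31e-06) at day 10. Ccl9 rose from 0.26, 0.46 and 0.37 FPKM by 4.30 (SE 0.28, adjusted p = 1.92e-06) and 2.61 (SE 0.23, adjusted p = 3.79e-05). Cxcl16 rose from 1.40, 1.75 and 0.83 FPKM by 2.58 (SE 0.21, adjusted p = 7.59e-06) and 2.64 (SE 0.21, adjusted p = 1.65e-05). The 2 log2 fold changes of Cxcl16 differed by less than their SE.

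Cxcl10 was at 0.23, 0.16 and 1.53 FPKM in SHAM-GH, and rose by a log2 fold change of 2.64 (SE 0.67, edgeR adjusted p = 0.00784) at day 3 and 2.42 (SE 0.65, adjusted p = 0.0186) at day 10. The day 10 call was lost without PEL_10d-GH 2, SHAM-GH 1 or SHAM-GH 2 (adjusted p = 0.0656 to 0.0753) and with DESeq2 (adjusted p = 0.0589). Ccl12 rose by 2.95 (SE 0.40, adjusted p = 0.000209) and 1.63 (SE 0.46, adjusted p = 0.0233). Its day 10 call was lost without PEL_10d-GH 1, PEL_10d-GH 2, SHAM-GH 2 or SHAM-GH 3 (adjusted p = 0.0503 to 0.0920), and in one fit over all hypothalamic groups with SHAM 1 (adjusted p = 0.0526) but not in that fit without it (adjusted p = 0.0256).

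Ccl2 was at 0.47, 0.14 and 1.98 FPKM in SHAM-GH, and 1 of the Sham libraries therefore lay within the day 10 range. It rose by a log2 fold change of 2.66 at day 3 (SE 0.55, edgeR adjusted p = 0.00243). The value at day 10 rested on SHAM-GH 3, and without that library the log2 fold change was 4.17 at day 3 and 2.10 at day 10 (edgeR adjusted p = 0.0604). In the filtered fits Ccl5 was tested only at day 10, where it passed the filter through the lesioned group. With no filter, Ccl5 was higher at day 3 as well (log2 2.28, SE 0.76, edgeR adjusted p = 0.0268). Its 2, 4 and 0 counts in SHAM-GH set against 11, 13 and 7 in PEL_3d-GH gave a ratio of 5.08 (95% counting interval 2.09 to 14.9), and against 34, 36 and 37 in PEL_10d-GH a ratio of 17.4 (7.74 to 48.5).

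Without GH the result depended on the library labelled SHAM 1. With all 3 SHAM libraries and no filter, 6 of 10 members were higher in PEL_3d, beside 8.26% of 17963 genes, and Ccl3, Ccl5, Cxcl10 and Cxcl13 did not pass in edgeR. With the filter, DESeq2 called Ccl3 (adjusted p = 0.00517) and Cxcl10 (adjusted p = 0.0430) higher in PEL_3d. Without SHAM 1, 8 of 10 were higher, beside 18.6% of 17823 genes, with Ccl5 and Cxcl13 as the exceptions. In PEL_10d, 2 of 10 members were higher (Ccl6 and Cxcl16), beside 1.28% of 17998 genes, and 7 of 10 were higher without SHAM 1, beside 7.3% of 17863 genes. With the filter, the shares of genes higher were 10.4% in PEL_3d and 1.81% in PEL_10d, and 22.2% and 7.97% without SHAM 1. Besides Cxcl13, those that did not pass at day 10 without SHAM 1 were Ccl2 (log2 2.33, SE 0.82, edgeR adjusted p = 0.122) and Ccl12 (1.74, SE 0.61, adjusted p = 0.117). With the filter, the 2 calls at day 10 with all libraries were both lost without PEL_10d 1, PEL_10d 3, SHAM 2 or SHAM 3, fits in which 0 of all genes were called. DESeq2 called 5 members higher in this comparison, Ccl5 among them, beside 4.51% of 14610 genes.

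The library labelled SHAM 1 differed from the other SHAM libraries in Ccl3 and Cxcl13. It had 13 counts of Ccl3, against 1 and 0, and 7 counts of Cxcl13, against 0 and 0. Ccl3 therefore passed the filter through the lesioned groups. Against its 1 count in SHAM 2 and SHAM 3 together, the ratio of depth-adjusted counts was 139 (95% counting interval 24.7 to 5526) in PEL_3d, with 218 counts, and 58.2 (10.2 to 2322) in PEL_10d, with 91 counts. Ccl4, with 0 counts in all 3 SHAM libraries, was at least 13-fold higher in PEL_3d (48, 35 and 42 counts) and at least 6.02-fold higher in PEL_10d (27, 9 and 21 counts), taking the floor of 3 counts for each SHAM library.

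**Figure D3:**
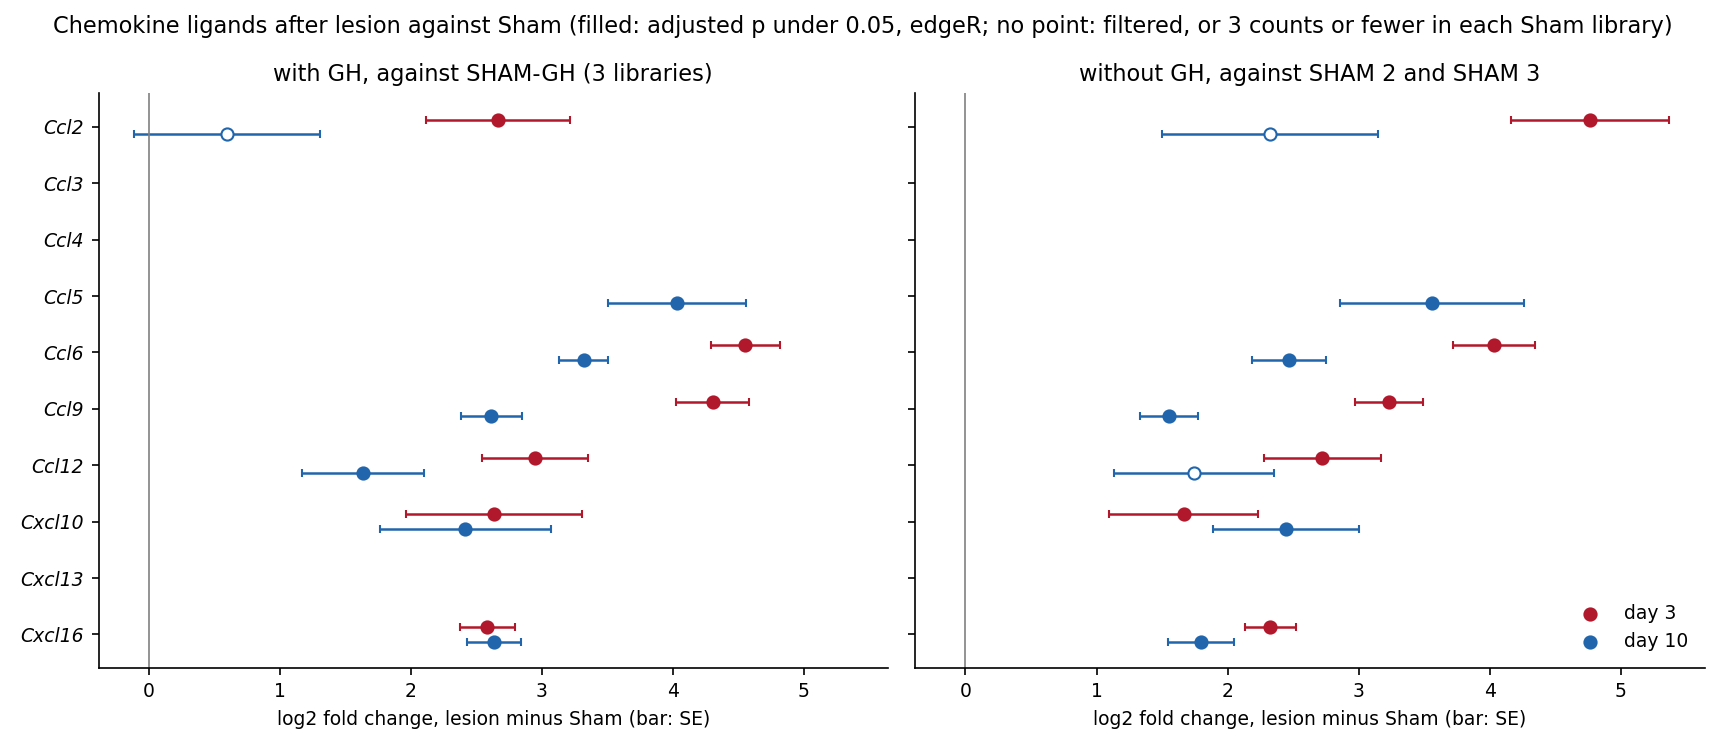
Log2 fold change of each tested member against Sham (x axis, bars are SE) at day 3 and day 10, with GH against the 3 SHAM-GH libraries (left) and without GH against SHAM 2 and SHAM 3 (right), with filled points for an edgeR adjusted p under 0.05. Ccl2 at day 10 and Ccl12 at day 10 without GH did not pass, and Ccl3 and Ccl4 are not drawn because each of these Sham libraries held 3 counts or fewer.

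The effect of GH was compared at each stage. No member passed in PEL_3d-GH against PEL_3d, where 0.027% of 14798 genes did by edgeR. Ccl3 (log2 0.83, SE 0.30, unadjusted p = 0.0201) and Ccl4 (0.52, SE 0.23, unadjusted p = 0.0470) were the 2 members with an unadjusted edgeR p under 0.05, both at an adjusted p of about 0.7 (0.695 and 0.729), and 6.80% of all genes had such an unadjusted p. In PEL_10d-GH against PEL_10d, 0 members and 0.0% of 14763 genes passed, and Ccl6 was the 1 member with an unadjusted p under 0.05 (log2 0.77, SE 0.16, unadjusted p = 0.00110, edgeR adjusted p = 0.479), beside 6.14% of all genes. All 3 PEL_10d-GH libraries of Ccl6 (10.2 to 14.9 FPKM) lay above the PEL_10d libraries (6.21 to 8.27). In SHAM-GH against SHAM, 0 of 3 tested members and 0.0% of 14404 genes passed, and Ccl9 was the 1 member with an unadjusted p under 0.05 (log2 -1.03, SE 0.34, unadjusted p = 0.0217, edgeR adjusted p = 0.697), beside 5.46% of all genes. Without the library labelled SHAM 1, 1.09% of 14539 genes passed (116 higher and 43 lower) and 0 of 4 tested members did, with Ccl9 at a log2 fold change of -0.77 (SE 0.35, unadjusted p = 0.0466, edgeR adjusted p = 0.324). With all libraries, DESeq2 called 0 members in each of these 3 comparisons. Over all settings tried, the calls over all genes ranged over 0 to 59 at day 3, 0 to 39 at day 10 and 0 to 359 in Sham.

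In the hippocampus the members stayed low. The sum over the 10 members was 3.06 to 4.76 FPKM in HIP-SHAM, 3.06 to 4.19 without HIP-SHAM 1, and 3.83 to 7.76 in HIP-PEL_10d. Only Ccl6, Ccl9 and Cxcl16 passed the filter, and none passed (0 at an unadjusted p under 0.05 and 0 by DESeq2). By edgeR 0.0% of 14039 genes passed, and 10.2% had an unadjusted p under 0.05. Over all settings tried, the calls over all genes ranged over 0 to 873. Ccl6 was at 0.87, 1.31 and 1.16 FPKM in HIP-SHAM and 2.62, 1.08 and 1.54 in HIP-PEL_10d (log2 0.68, SE 0.40, edgeR adjusted p = 0.586). Without the library labelled HIP-SHAM 1, 0 of 4 tested members were called, beside 6.15% of 14191 genes, and Ccl6 was at a log2 fold change of 0.47 (SE 0.39, edgeR adjusted p = 0.505). Ccl2 had 0 counts in all 3 HIP-PEL_10d libraries, which allows up to 3 counts in each.

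Markers of several of the cells that make and answer chemokines moved between the days as well. The summed FPKM of 10 genes of myeloid cells was 635 to 969 at day 3, 252 to 485 at day 10 and 61.3 to 76.2 in the Sham libraries other than SHAM 1. The sum of 10 homeostatic microglial genes was 648 to 856 at day 3 and 275 to 427 at day 10, that of 9 border macrophage genes was 60.7 to 140 and 11.1 to 32, and that of 8 monocyte genes was 84.0 to 159 and 54.3 to 84.1. The sum of 12 T and natural killer cell genes was 1.82 to 2.53 at day 3 and 3.38 to 5.72 at day 10, against 1.27 to 1.99 in the same Sham libraries. Of these 12 genes, Ncr1 was at 0 in PEL_3d and Gzmb in PEL_3d-GH, while none was at 0 in all libraries of a day 10 group. Many lay at the floor at day 3: 6 exceeded it in any PEL_3d library and 7 in PEL_3d-GH, against 11 in PEL_10d and 10 in PEL_10d-GH. None of the myeloid, border macrophage or monocyte genes was at 0 in any of the lesioned hypothalamic groups. Myeloid, microglial, border macrophage and monocyte markers thus fell between the days as 6 members did, and T and natural killer cell markers rose as Ccl5 did. The sum of 8 reactive astrocyte genes was 1029 to 1674 at day 3 and 535 to 1080 at day 10. That of 8 B cell genes, the cells that Cxcl13 attracts, was 3.59 to 9.54 and 2.75 to 5.45 (exact permutation p = 0.055). The sum of 5 red blood cell genes was 15.5 to 57.7 at day 3 and 26.3 to 213 at day 10 (exact permutation p = 0.03). The sums of 10 neutrophil genes (7.30 to 21.7 and 4.93 to 45.7, exact permutation p = 0.64) and 8 endothelial genes (174 to 235 and 176 to 217, exact permutation p = 0.175) did not pass. The part of these cells in the results was not tested.

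Set against the 10 myeloid genes of the same library, the levels of the members are given as a description. The myeloid sum itself was 2.02-fold lower at day 10, so that a gene of equal FPKM on both days comes out higher by about that factor. Of the 13462 genes with a mean of at least 1 FPKM, 76.9% were higher at day 10 with no overlap between the days on this scale and 1.2% were lower. Ccl2 was at 0.795% of the myeloid sum at day 3 and 0.322% at day 10 (exact permutation p = 0.010), with libraries from 0.543% at day 3 and up to 0.552% at day 10, so that the ranges overlapped. Ccl9 was at 0.837% and 0.547% (exact permutation p = 0.005), with no overlap. Both were thus lower at day 10 on this scale too. Ccl3 (0.998% and 0.755%, exact permutation p = 0.065), Ccl4 (0.601% and 0.464%, exact permutation p = 0.115), Ccl6 (3.19% and 2.56%, exact permutation p = 0.090) and Ccl12 (0.760% and 0.772%, exact permutation p = 0.965) did not pass. Cxcl16 was at 1.09% at day 3 and 1.78% at day 10, while its FPKM at day 10 was 0.822 times that at day 3. Cxcl10 was at 0.435% and 1.10%, with overlapping libraries, and its FPKM at day 10 was 1.21 times that at day 3. The values of these genes are those of most genes on this scale and are not read as a rise. Ccl5 was at 0.146% and 1.21% (exact permutation p = 0.005), and it was higher in FPKM as well. Neurons, astrocytes and vessels also make chemokines, and this scale was chosen after the data were seen.

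**Figure D4:**
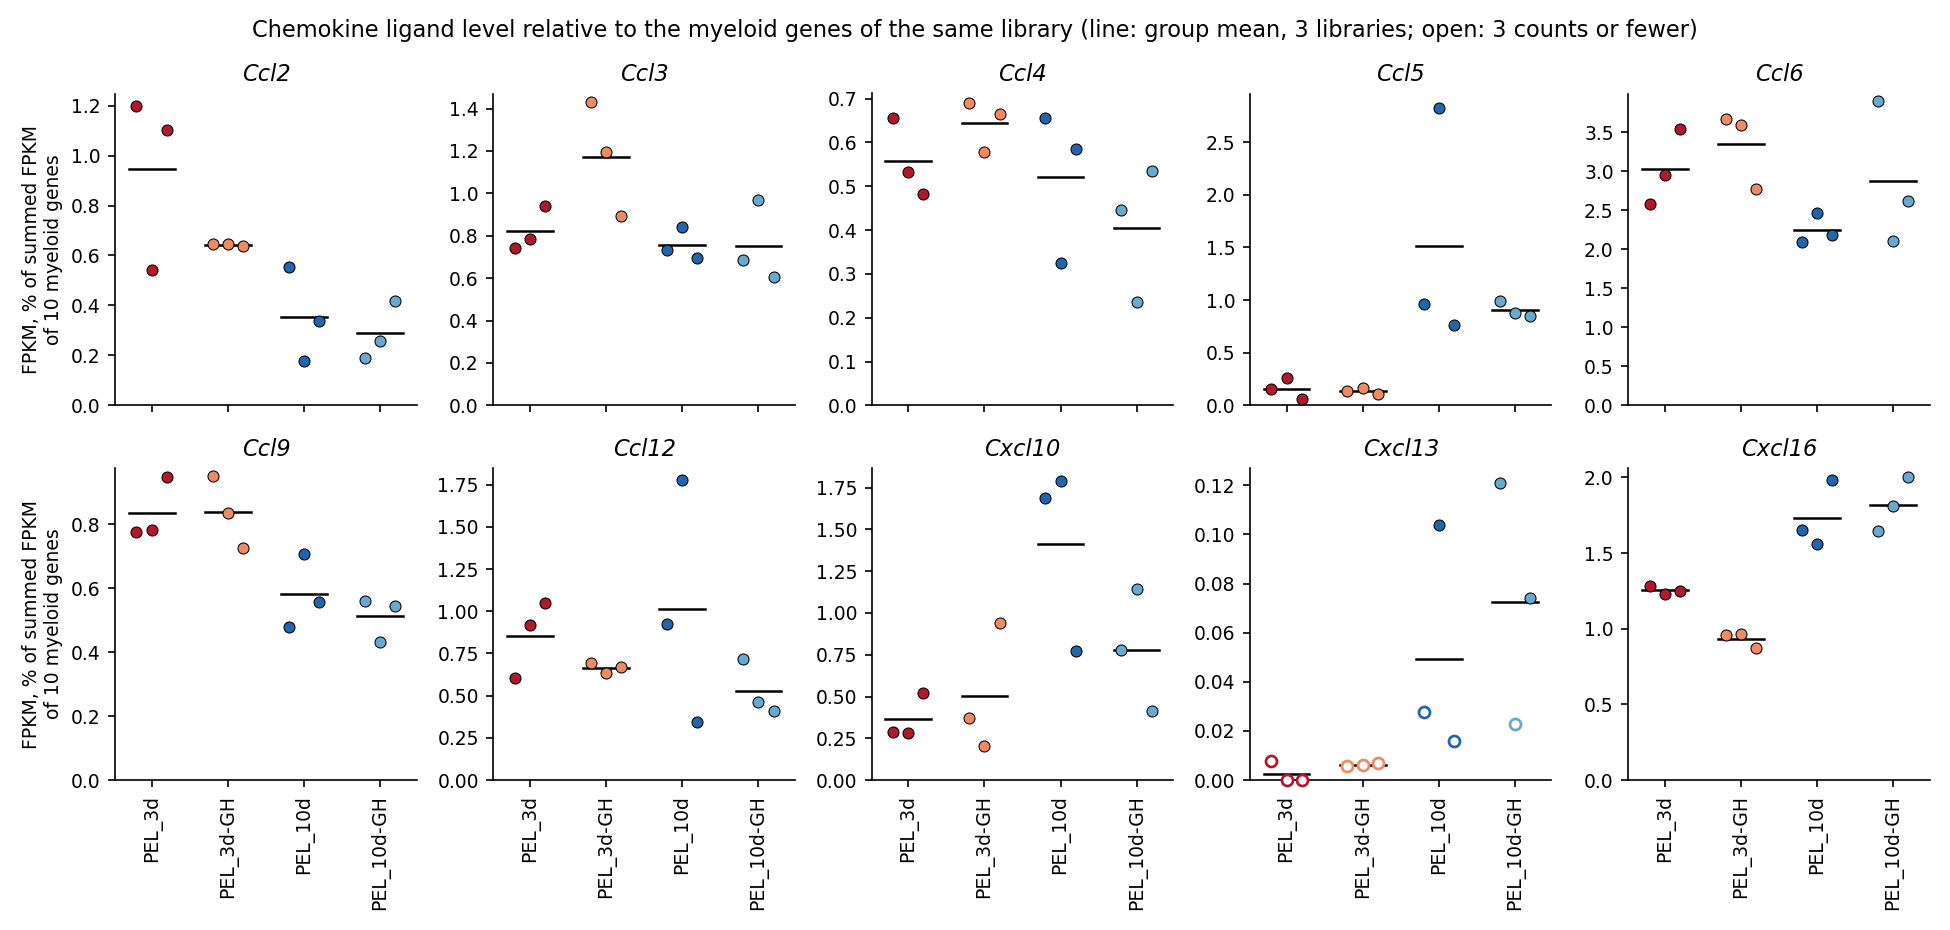
FPKM of each member as a percent of the summed FPKM of 10 myeloid genes of the same library (y axis, from 0, one scale per gene) in the 4 lesioned hypothalamic groups (x axis), with a line at the mean of 3 libraries and open points for 3 counts or fewer. The day 3 and day 10 libraries do not overlap in Ccl5, Ccl9 and Cxcl16, or in Cxcl13 at its 0 to 9 counts, and they overlap in the other 6 members. Since the myeloid sum was 2.02-fold lower at day 10, 76.9% of genes are higher at day 10 on this scale with no overlap.

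Over the 18 hypothalamic libraries, the genes whose log2(FPKM + 0.1) followed each member most closely are a description, since all points share the lesion and the day. Ccl6 ran with Laptm5, Vsir and C1qa, all expressed in myeloid cells (Pearson r of 0.99 for the first), Ccl9 with Arhgdib, Itgb5 and Lyn (r = 0.99) and Ccl4 with Plaur, Itgb2 and Slc15a3 (r = 0.99). Ccl3 ran with the lysosomal genes Ctsa and Gm2a and with Unc93b1, which carries nucleic acid-sensing Toll-like receptors to the endosome (r = 0.98), and Cxcl16 with Bcl2l11, Ncf4 and Slc11a1 (r = 0.98). Ccl12 was nearest to Trim25 and Pycard (r = 0.97) and Ccl2 to Socs3, the feedback inhibitor of cytokine signalling, Gpx1 and Eci2 (r = 0.95). Ccl5 was nearest to Lag3, Serping1 and Efemp1 (r = 0.90), and Cxcl10 to Isg15, Igtp and Psmb10 (r = 0.88), the latter 3 all interferon-induced. For Cxcl13 the nearest genes were Tprn, Cnp and Atp11a (r = 0.87), at 0 to 9 counts of Cxcl13 a library.

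Cxcl10 was not among the 6 members that fell from day 3 to day 10, and the 250 bases before its annotated start are shown (RefSeq, GRCm38.p6, chr5:92348890-92349139, minus strand, 5′ to 3′), with matches to a kappaB motif (GGGANTTNCC) and to an interferon-stimulated response element (GAAANNGAAA) in capitals, both searched on both strands.
Cxcl10: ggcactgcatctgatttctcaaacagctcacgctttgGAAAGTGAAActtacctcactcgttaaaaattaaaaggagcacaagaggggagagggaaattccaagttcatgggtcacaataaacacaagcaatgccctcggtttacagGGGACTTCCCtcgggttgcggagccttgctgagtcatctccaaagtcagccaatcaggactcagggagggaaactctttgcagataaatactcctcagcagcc
The interferon-type match lies 213 to 204 bases before the start and the kappaB match 103 to 94 bases before it. The kappaB letters occur in 0.98% of the 32851 RefSeq promoter windows of this length and the interferon-type letters in 2.98%. Of the 6 members with a promoter sequence in the table used (Ccl3, Ccl6, Ccl9, Ccl12, Cxcl10 and Cxcl13), Cxcl10 was the 1 member with either match. A match is a description of letters and not a measured site.

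Of 27 other chemokine ligands, 14 were tested between the days with GH as a covariate, and 3 were lower and 5 were higher at day 10 (edgeR), beside 22.1% lower and 17.3% higher of all genes tested. Pf4, a platelet and macrophage ligand, was at 15 to 28.9 FPKM in PEL_3d and 13.6 to 28.5 in PEL_3d-GH, and at 0.82 to 1.72 in PEL_10d and 2.07 to 2.90 in PEL_10d-GH (log2 -3.55, SE 0.28, edgeR adjusted p = 3.99e-07). Ccl11, the eosinophil attractant (log2 -2.84, SE 0.25, adjusted p = 1.26e-06), and Ccl7, another ligand of Ccr2 (-1.92, SE 0.39, adjusted p = 0.00164), fell as well. Cxcl9, which shares the receptor Cxcr3 with Cxcl10, was at 0.00 to 0.04 FPKM in PEL_3d and 0.61 to 1.46 in PEL_10d, and at 0.08 to 0.17 in PEL_3d-GH and 0.30 to 1.12 in PEL_10d-GH. Its counts were 0 to 2 in PEL_3d and 4 to 8 in PEL_3d-GH, too few for a reliable fold, so that it passed the filter through the day 10 groups. With no filter it was higher at day 10 as well (edgeR adjusted p = 0.000155). Ccl19, which guides T and dendritic cells through Ccr7 (0.97, SE 0.29, adjusted p = 0.0171), and Cxcl12, the ligand of Cxcr4 (0.40, SE 0.12, adjusted p = 0.0150), also rose, together with Cx3cl1 and Ccl27a. With no filter on low counts, 26 were tested, with 3 lower and 5 higher, beside 16.9% lower and 14.8% higher of 18476 genes.

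Of 23 chemokine receptors, 13 were tested, and 5 were lower and 2 were higher at day 10, of which 6 are described here. Over all 15091 genes tested, 22.1% were lower and 17.3% were higher. Ccr1, a receptor of Ccl3, Ccl5, Ccl6 and Ccl9, was at 3.10 to 6.04 FPKM in PEL_3d, 2.23 to 4.71 in PEL_3d-GH and 0.15 to 0.41 in the day 10 libraries (log2 -3.64, SE 0.27, edgeR adjusted p = 2.74e-07). Ccr2, the receptor of Ccl2 and Ccl12, fell by 1.22 on the log2 scale (SE 0.25, edgeR adjusted p = 0.00174). Cx3cr1 (log2 -0.71) and Cxcr2 were also lower. Those that rose were Cxcr3, the receptor of Cxcl9 and Cxcl10, and Cxcr6, the receptor of Cxcl16, both with a highest group mean under 1 FPKM. With 3 to 7 counts of each in the day 3 libraries, both passed the filter through the day 10 groups. With no filter, Cxcr3 rose by 1.49 on the log2 scale (SE 0.34, edgeR adjusted p = 0.00357) and Cxcr6 by 1.56 (SE 0.42, adjusted p = 0.00922). With no filter all 23 were tested, and again 5 were lower and 2 were higher, beside 16.9% lower and 14.8% higher of 18476 genes.

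Of 23 inducing cytokines and transcription factors, 18 were tested between the days, and 9 were lower and 0 were higher at day 10. In the same fit, 22.1% of all 15091 genes were lower and 17.3% were higher. Il1b, which encodes interleukin 1 beta, was at 0.61 to 1.65 FPKM in PEL_3d and 0.18 to 0.43 in PEL_10d, and at 0.21 to 0.65 in PEL_3d-GH and 0.23 to 0.51 in PEL_10d-GH. It fell over both strata (log2 -1.36, SE 0.42, edgeR adjusted p = 0.0205) and without GH (log2 -2.07, SE 0.50, adjusted p = 0.0201), and did not pass with GH. Irf8, a transcription factor of microglia and macrophages (-0.88, SE 0.10, adjusted p = 1.12e-05), Stat3, which relays interleukin 6 signals (-0.55, SE 0.07, adjusted p = 3.25e-05), and Nfkb2, a subunit of NF-kappaB (-0.56, SE 0.15, adjusted p = 0.00862), fell. The feedback inhibitor Tnfaip3 and Rel, Nfkb1, Nfkbiz and Irf9 were lower too. The median of the 18 was -0.27, beside -1.38 for the chemokine members.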

How the data were processed

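RNA was sequenced from 18 hypothalamic and 6 hippocampal libraries (SMARTER mRNA-Seq kit). The authors aligned reads with Hisat2 and counted them per gene with featureCounts, and the submitters' processing notes name GRCm38 and mm10. The deposited table holds estimated counts, of which 8.22% were not whole, and FPKM values computed by the authors. Estimated counts were rounded, filtered with filterByExpr (minimum count 10), scaled by TMM and tested with edgeR 4.0.16 (quasi-likelihood test, Benjamini-Hochberg adjustment over all genes, threshold 0.05) in R 4.3.3, each fit with the groups compared only. DESeq2 1.42.0 was an alternative. FPKM means were compared by exact two-sided permutation within GH strata; 3 libraries against 3 cannot go below p = 0.10. Of the 22274 identifiers, 22219 were matched to a symbol. For members, all 10 were named in every comparison; for the other lists, up to 6 called genes with a group mean of at least 1 FPKM, by size of change, were named with values, and other called genes by name. The 3 nearest genes came from 13418 candidates. Some items of these lists are not reported here. Members and lists were chosen with earlier results of these data known. Scripts were tested on simulated counts. Reads were PCR-amplified without molecular identifiers, so counting intervals cover counting error only. Leaving out each library, other scalings and filters, a replicate block and a joint fit were tried.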

Additional observations from a re-analysis of the deposited data

How the results depend on the processing

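Over the 12 lesioned hypothalamic libraries, the number of members called between the days was 7 whichever library was left out. With a mean count of at least 50 it was 3 of 5 members tested, beside 3063 lower and 2464 higher of 13129 genes. The same filter gave 3 calls of 5 tested for PEL_10d-GH against PEL_3d-GH, beside 1424 lower and 752 higher of 13161 genes. It gave 3 calls for PEL_3d against SHAM, 4 for PEL_3d-GH against SHAM-GH and 3 for PEL_10d-GH against SHAM-GH. In these comparisons with Sham every member tested was called. Over all settings, the calls over all genes in them ranged over 821 to 6116, 5938 to 8815 and 1957 to 5376. Leaving out 1 library gave 3 to 7 calls for PEL_10d-GH against PEL_3d-GH and 0 to 7 for PEL_10d against SHAM, while the calls over all genes ranged over 704 to 4435 and 0 to 1392. In the latter, 5 members were called by DESeq2, 8 in one fit over all hypothalamic groups and 6 in that fit without SHAM 1, and 7 with no filter on low counts and without SHAM 1, an alternative added after the data were seen, beside 2 in the report; these numbers include members that entered the fit through the lesioned group. Of all genes, 659 of 14610, 777 of 15214, 1218 of 15337 and 1304 of 17863 were higher in these fits, beside 265 of 14610 in the report; the cause was not tested. Replicate numbers paired no groups: in none of the pairs of groups compared did all same-numbered libraries deviate together (correlations over 0.1). With the number as a replicate block, PEL_10d against SHAM gave 0 calls (0 of all 14610 genes) and PEL_10d against PEL_3d gave 6 lower and 1 higher (2101 and 1266 of all 14807 genes, beside 1804 and 938 in the report), and the other counts of member calls stayed within 1.5 times.

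As a percent of the myeloid sum, a scale chosen after the data were seen, the difference between day 10 and day 3 was -0.243 for Ccl3, -0.137 for Ccl4, -0.623 for Ccl6, 0.662 for Cxcl10, and turned to 0.0120 for Ccl12 and 0.683 for Cxcl16 (percentage points). Leaving out 1 library gave a difference of 0.151 to 0.239 FPKM for Cxcl13, at an exact permutation p of 0.05 without any 1 PEL_3d-GH library. The sign of 3 log2 fold changes that had not passed turned on 1 library: Cxcl16 with GH between the days ranged over -0.110 to 0.210, Cxcl10 over -0.729 to 0.334, and Cxcl16 in the hippocampus over -0.902 to 0.156, the latter without HIP-SHAM 1. Counts were at or under the floor for Cxcl13 in most libraries and for Ccl3, Ccl4 and Ccl5 in most hypothalamic Sham libraries. The part of depth in this was not tested.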
